A study of Rattus norvegicus with 12 samples.

Results

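The genes of ion channels and of their accessory subunits were followed across 3 zones of young rat cartilage. They were taken as the transcript clusters (the probe sets of a gene on the array) whose single gene symbol begins with Kcn, Cacn or Piezo, or with Scn, Trpc, Trpm, Trpv or Ano and a digit, with the brightest cluster for each gene. This gave 140 genes from 141 clusters, of 14300 genes that have a cluster of 1 symbol and of 27342 clusters in all. Trpc4ap was taken in by its symbol, although it encodes a protein that associates with TRPC channels and not a pore. A further 4 clusters carry several symbols of which at least 1 fits, and these were not used. Trpv4, which shares a cluster with Trpv1 in the annotation, therefore has no value of its own. Piezo2 and Ano5 had no cluster of their own symbol either and were not analysed here.

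Articular cartilage was divided into a superficial zone (SZ) and an intermediate/deep zone (IDZ), and of the growth plate the resting zone (RZ) was taken, all by microdissection of the proximal tibia of Sprague-Dawley rats that were 10 days old. Each zone had 4 Affymetrix Rat Gene 1.0 ST arrays. An SZ sample held both tibias of 1 animal, while an IDZ or RZ sample pooled 4 tibias of 2 animals, and an IDZ sample shared its animals with the RZ sample that has its number. The animals of the SZ samples were those of IDZ and RZ samples 3 and 4, so that the zones are not independent of each other in their animals. Values are log2 expression, and differences are on the log2 scale with the standard error (SE) of the fit. Because each sample is a piece of tissue, a lower value of a gene from fewer cells of a type and from less RNA per cell cannot be told apart.

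The tissue labels were checked against marker genes. All 8 measured chondrocyte markers, among them Col2a1 and Acan, lay above background in all 3 zones, and 7 of them were lower in SZ than in IDZ. Prg4, which encodes the lubricant of the joint surface, had a mean of 12.78 in SZ, 10.30 in IDZ and 5.68 in RZ. Markers of several other cell types were mostly higher in SZ than in IDZ. These were 8 of 9 endothelial, 8 of 10 pericyte and smooth muscle, 11 of 11 macrophage and 8 of 9 fibrous tissue markers. The same held for 3 of 4 osteoclast and 4 of 5 adipocyte markers. Other lists did not rise, with 0 of 5 T cell, 0 of 9 skeletal muscle, 0 of 4 erythroid and 1 of 10 nerve and Schwann cell markers higher in SZ. In the skeletal muscle list and in the nerve and Schwann cell list, 1 marker each was lower in SZ. SZ replicate 4 stood apart from the other arrays, with a median over the 140 genes of 6.69 against 6.23 to 6.47 on the other 3 SZ arrays, and counts that depend on it are given with and without it.

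Ion channels are membrane proteins that let sodium, potassium, calcium or chloride pass when voltage, a ligand, calcium or mechanical load opens them. Chondrocytes are not classically excitable, but they live in a matrix that is compressed with every step and whose fixed charges draw in cations and water. Channels that answer to stretch and swelling, above all PIEZO1, PIEZO2 and TRPV4, let calcium into these cells under load, while potassium channels set the membrane potential and chloride channels take part in volume control. Many channels of this family are better known from nerve, muscle and vessel wall.

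A majority of the family gave a signal above background in at least 1 zone, though a smaller share than of all genes. This majority depended on the level chosen. With the 99th percentile in place of the 95th used here, the share was 40.7%, against 59.7% of all genes. Background was set at the 95th percentile of the zone means of 1269 clusters of olfactory and vomeronasal receptor genes, a log2 level of 6.36 in SZ, 6.46 in IDZ and 6.30 in RZ. Of the 140 genes, 79 (56.4%) exceeded it in at least 1 zone, against 70.3% of all genes, and 65 exceeded it in all 3 zones. By role, this held for all 6 calcium- or sodium-activated potassium channel genes, all 4 anoctamins and Piezo1, for 22 of 35 pore genes of voltage-gated potassium channels, 6 of 9 calcium channel pore genes, 8 of 15 inward rectifiers, 8 of 11 two-pore potassium channels and 2 of 6 TRPM genes, but for 1 of 5 TRPV genes (Trpv2) and for none of the 8 sodium channel pore genes.

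The median of the family lay near 0 in each comparison, and the differences described here are those of single genes. The median difference of the 140 genes was -0.05 for SZ minus IDZ, 0.08 for IDZ minus RZ and -0.02 for SZ minus RZ, against -0.03, 0.01 and -0.02 over all genes. At an adjusted p under 0.05 (limma, Benjamini-Hochberg over all clusters), SZ exceeded IDZ in 20 ion channel genes (background over all genes 17.0%) and was below it in 14 (background 9.56%). With at least a 2-fold difference as well, these were 5 genes (background 4.57%) and 0 genes (background 1.01%). Between IDZ and RZ, 10 genes were higher in IDZ (background 3.22%) and 6 were lower in IDZ (background 5.58%), of which 3 and 2 reached 2-fold (background 0.706% and 0.524%). Between SZ and RZ, 26 genes were higher in SZ (background 14.5%) and 13 were lower in SZ (background 12.2%), of which 10 and 3 reached 2-fold (background 4.92% and 1.75%). The shares of the family called in either direction were 24.3%, 11.4% and 27.9%, and those of all genes were 26.6%, 8.80% and 26.7%. Arrays of both zones did not overlap in 36 ion channel genes for SZ and IDZ (background 25.3%), in 33 for IDZ and RZ (background 24.3%) and in 36 for SZ and RZ (background 27.1%).

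Some of these counts rested on single choices. Without SZ replicate 4, the genes lower in SZ than in IDZ numbered 48, which is 34.3% of the family against 19.0% of all genes. Of the 48, 22 were above background in no zone, and so were 61 of the 140 genes of the family. Over all genes, this held for 867 of the 2721 called lower in SZ. The genes higher in SZ than in IDZ without this array numbered 24 of 140, against 3713 of the 14300 genes. The same array left out gave 25 in place of 13 genes lower in SZ than in RZ, against 2143 in place of 1751 over all genes. Between IDZ and RZ it gave 15 and 12 in place of 10 and 6, against 817 and 1747 in place of 461 and 798 over all genes. With the pair of animals as a fixed block, 18 genes were higher in IDZ than in RZ and 11 lower, out of 867 and 1708 among all genes. The 2-fold counts changed by at most 1 gene under all of these.

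**Figure D1:**
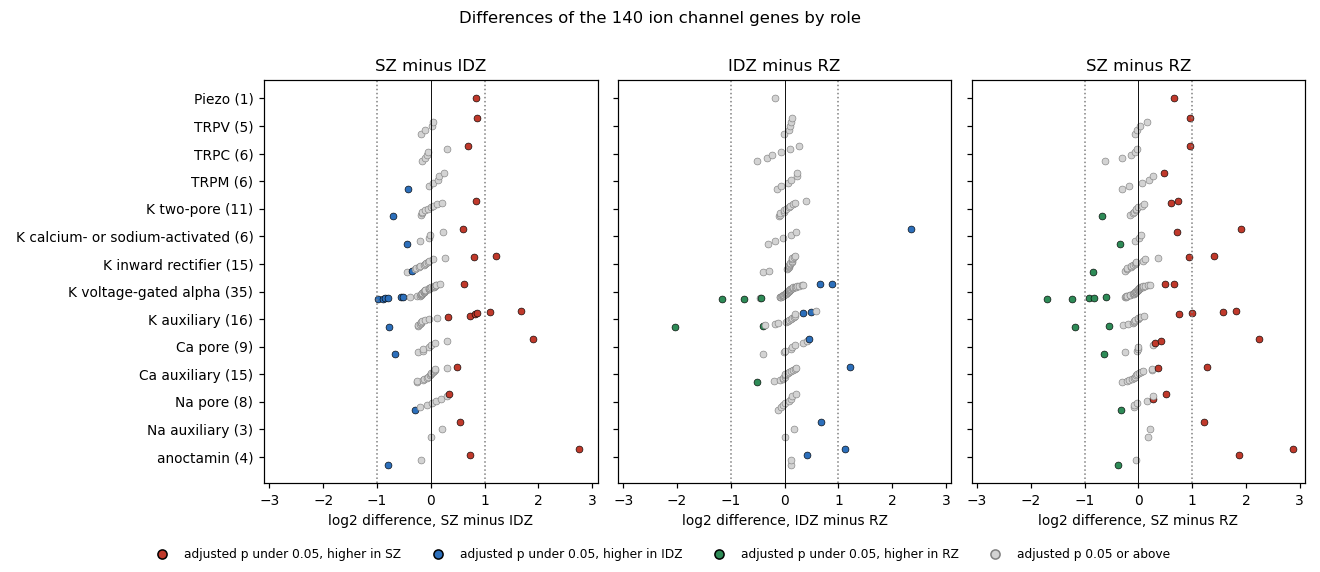
Log2 differences of the 140 ion channel genes between zones (SZ minus IDZ, IDZ minus RZ and SZ minus RZ), with 1 point per gene and 1 row per role and the number of genes in parentheses. Colored points have an adjusted p under 0.05, dotted lines mark 2-fold, and points are spread vertically only to be seen. Most points lie near 0. Among those far out are Ano6 at 2.75 (SZ minus IDZ), Kcnt2 at 2.34 and Kcnip1 at -2.04 (IDZ minus RZ), and Cacna1g at 2.25 (SZ minus RZ).

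In all, 13 genes differed at least 2-fold between some pair of zones, and all 13 were among those called between SZ and RZ. They comprise 2 anoctamins (Ano6, Ano1), a calcium channel pore (Cacna1g), an accessory calcium channel gene (Cacng7), a sodium channel accessory subunit (Scn2b), a sodium-activated potassium channel (Kcnt2), an inward rectifier (Kcnj8), 2 voltage-gated potassium channel pores (Kcna5, Kcnd2) and 4 potassium channel accessory subunits (Kcne3, Kcne4, Kcnip1, Kcnmb1). Kcnmb1 stood at the limit, with a fold of 2.00, and fell to a log2 difference of 0.96 to 0.99 under several alternatives.

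**Figure D2:**
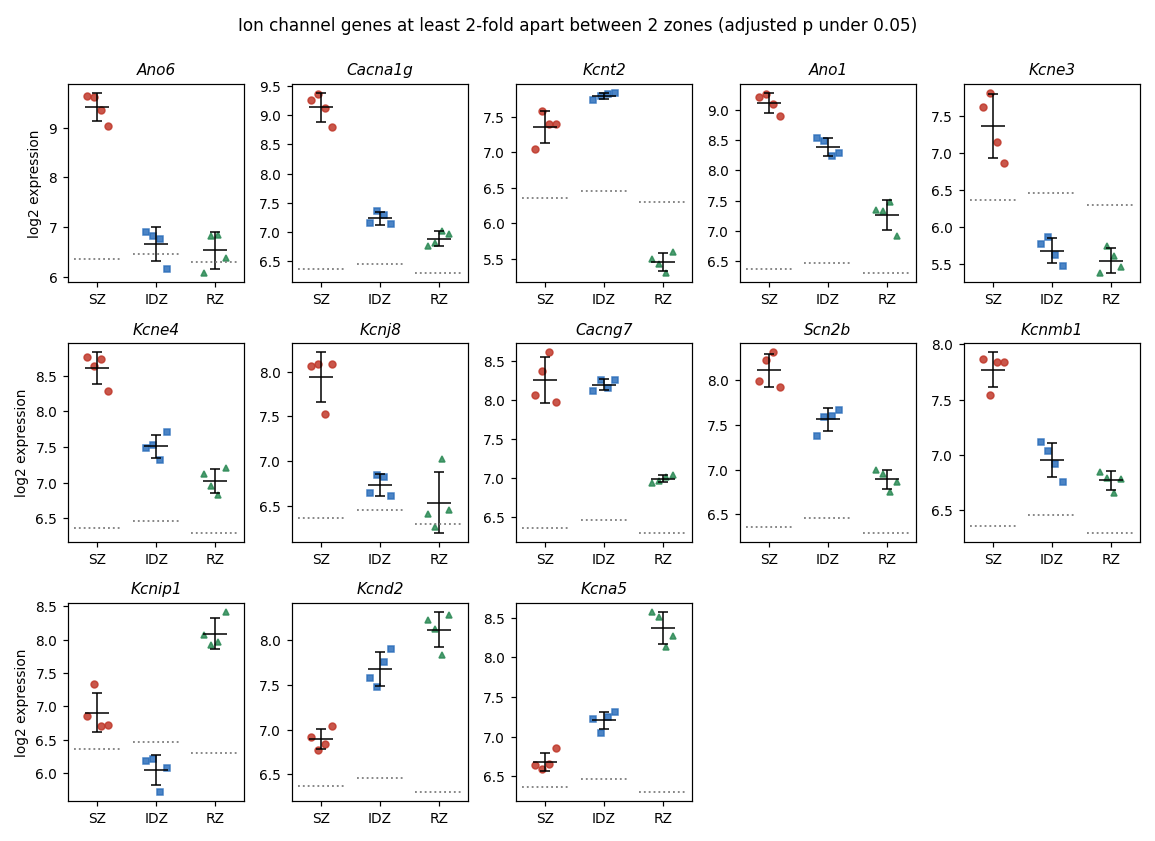
Log2 expression of the 13 genes with at least a 2-fold difference between some pair of zones, in SZ (red), IDZ (blue) and RZ (green). Points are the 4 arrays of a zone, bars are the mean and SD, and the dotted grey line is the receptor background of that zone. Ano6 in SZ lies between 9.03 and 9.64, above all IDZ and RZ arrays, and Kcna5 in RZ lies between 8.13 and 8.57, above all SZ and IDZ arrays.

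The 4 anoctamins measured held the largest difference of the family. ANO1 is a chloride channel opened by calcium, and ANO6 moves phospholipids across the membrane when calcium rises and also passes ions. Ano6 had values of 9.64, 9.62, 9.35 and 9.03 on the SZ arrays, 6.90, 6.82, 6.76 and 6.16 on the IDZ arrays, and 6.08, 6.83, 6.85 and 6.39 on the RZ arrays. The SZ arrays were thus all well above the rest, whereas IDZ and RZ overlapped and lay near background. The difference was 2.75 ± 0.20 (SE) between SZ and IDZ, a 6.73-fold higher level in SZ (adjusted p = 1.17e-07), and 0.12 between IDZ and RZ (adjusted p = 0.805). Ano1 formed steps instead, with 9.22, 9.27, 9.10 and 8.90 in SZ, 8.54, 8.48, 8.25 and 8.29 in IDZ, and 7.34, 7.32, 7.48 and 6.91 in RZ, and no pair of zones overlapped. It was 1.66-fold higher in SZ than in IDZ (adjusted p = 0.000556) and 2.19-fold higher in IDZ than in RZ (adjusted p = 4.78e-05). Ano4 had its highest values in IDZ, with a mean of 5.72 ± 0.24 in SZ, 6.52 ± 0.10 in IDZ and 6.10 ± 0.14 in RZ (SD, n = 4), so that only IDZ was above background. It was lower in SZ than in IDZ by 0.80 (adjusted p = 0.000137). Its smaller difference of 0.42 between IDZ and RZ (adjusted p = 0.0451) missed the threshold under 13 alternatives, the random block by animals among them, and so did SZ minus RZ (-0.38, adjusted p = 0.033) under 9. Ano7 had means of 6.93, 7.11 and 6.98 and passed no test.

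The start regions of 4 of these genes are shown as examples of different zone patterns among the genes with a window in the reference, namely Ano6 (high in SZ), Ano1 (steps with SZ highest), Kcnt2 (low in RZ) and Kcna5 (steps with RZ highest). The windows are from RefSeq on the GRCr8 assembly, run 5' to 3' on the strand of the gene, and hold 250 bases before the annotated start and 50 after it (Ano6 at chr7:128812881-128813180 on the plus strand, Ano1 at chr1:209329289-209329588 on the minus strand, Kcnt2 at chr13:54215057-54215356 on the plus strand, Kcna5 at chr4:161043760-161044059 on the minus strand). Capitals mark matches on either strand to 6 motifs, namely the GC box GGGCGG, the TATA box TATAAA, the AP-1 motif TGANTCA, the TEAD motif GGAATG, the RUNX motif TGTGGT and the SOX motif AACAAT, and no match to one motif overlapped a match to another.
Ano6: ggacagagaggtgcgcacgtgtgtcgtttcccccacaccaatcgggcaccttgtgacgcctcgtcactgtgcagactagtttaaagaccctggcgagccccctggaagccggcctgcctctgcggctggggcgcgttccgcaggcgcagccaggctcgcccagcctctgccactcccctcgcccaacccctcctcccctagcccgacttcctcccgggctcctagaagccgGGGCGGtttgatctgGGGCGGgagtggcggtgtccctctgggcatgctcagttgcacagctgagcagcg
Ano1: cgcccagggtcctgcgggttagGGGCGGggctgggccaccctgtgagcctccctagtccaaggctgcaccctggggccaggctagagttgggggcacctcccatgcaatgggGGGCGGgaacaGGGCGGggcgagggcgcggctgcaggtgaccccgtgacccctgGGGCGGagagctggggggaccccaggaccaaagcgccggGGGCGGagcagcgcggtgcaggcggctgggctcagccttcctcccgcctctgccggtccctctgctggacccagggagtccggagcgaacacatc
Kcnt2: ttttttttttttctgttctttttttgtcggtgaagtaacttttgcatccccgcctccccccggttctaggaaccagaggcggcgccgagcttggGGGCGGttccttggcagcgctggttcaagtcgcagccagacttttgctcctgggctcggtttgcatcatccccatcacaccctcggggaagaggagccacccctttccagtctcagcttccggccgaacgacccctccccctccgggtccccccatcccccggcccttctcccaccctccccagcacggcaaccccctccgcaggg
Kcna5: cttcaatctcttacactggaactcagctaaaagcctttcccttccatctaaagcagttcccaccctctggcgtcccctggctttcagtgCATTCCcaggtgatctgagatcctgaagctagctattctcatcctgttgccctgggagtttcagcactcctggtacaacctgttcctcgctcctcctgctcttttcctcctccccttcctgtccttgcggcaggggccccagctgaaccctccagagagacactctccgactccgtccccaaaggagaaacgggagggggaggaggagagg
The windows of Ano6, Ano1 and Kcnt2 held more CpG pairs than that of Kcna5. Ano6 had 22 CpG pairs and 2 GC boxes, Ano1 had 20 and 5, Kcnt2 had 18 and 1, and Kcna5 had 6 and 0 with 1 TEAD match. A window was found for 103 of the 140 genes, 113 windows in all. Their median was 13 CpG pairs and 60.3% GC, against 16 and 58% over the 12363 windows of all genes on the array, and a GC box stood in 46.9% of them, against 50.1%. TATAAA was present in 3.54% of the ion channel windows and in 11.6% of those of all genes on the array. The other motifs were present in 4.42% against 6.28% (AP-1), 12.4% against 13.8% (RUNX) and 7.08% against 8.59% (SOX), and the TEAD motif in 11.5% against 12%. These matches describe the letters in the windows and nothing more.

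Among the channels linked to mechanical load, Piezo1 and Trpv2 were higher in SZ than in both other zones. Piezo1 encodes a channel that membrane tension opens directly. Its values were 9.90, 10.29, 10.13 and 9.71 in SZ, 9.15, 9.12, 9.26 and 9.12 in IDZ, and 9.48, 9.47, 9.33 and 9.11 in RZ. All 3 zones were thus far above background, SZ did not overlap either other zone, and IDZ and RZ overlapped. Piezo1 was 1.79-fold higher in SZ than in IDZ (0.84 ± 0.12, adjusted p = 0.000125) and 1.58-fold higher in SZ than in RZ (0.66 ± 0.12, adjusted p = 0.00101). Trpv2, a cation channel that has been linked to stretch, had 7.46, 7.76, 7.17 and 7.40 in SZ, 6.53, 6.62, 6.79 and 6.43 in IDZ, and 6.50, 6.55, 6.58 and 6.33 in RZ. It was 1.81-fold higher in SZ than in IDZ (adjusted p = 9.99e-05) and 1.94-fold higher in SZ than in RZ (adjusted p = 2.77e-05), and IDZ and RZ were close to background. Trpv2 is also known from macrophages, and the macrophage list, with a mean log2 level of 8.17 to 8.93 in SZ, 6.66 to 6.84 in IDZ and 6.40 to 7.01 in RZ, moved with it. The part of these cells in the difference was not tested. Trpv1, Trpv3, Trpv5 and Trpv6 were above background in no zone and passed no test.

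Among the 12 TRPC and TRPM genes, Trpc6 and Trpm7 were called between SZ and RZ. Trpc6, a channel opened by diacylglycerol, had 6.86, 6.54, 6.59 and 6.40 in SZ, 6.09, 5.86, 5.85 and 5.81 in IDZ, and 5.71, 5.61, 5.68 and 5.54 in RZ, and only SZ was above background. It was 1.62-fold higher in SZ than in IDZ (adjusted p = 0.000168) and 1.95-fold higher in SZ than in RZ (adjusted p = 5.82e-06), while IDZ minus RZ was 0.26 (adjusted p = 0.176) and passed with the fixed block by animals and in the fit of both zones alone (adjusted p from 0.0437 to 0.0478). Trpc1, which has been linked to calcium entry, had 7.02, 7.62, 7.58 and 6.14 in SZ, 6.99, 7.02, 7.38 and 7.38 in IDZ, and 7.78, 7.67, 7.62 and 7.74 in RZ. RZ was the least variable zone here and lay above all IDZ arrays, but SZ replicate 4 was low, the SD in SZ was 0.69, and neither IDZ minus RZ (-0.51, adjusted p = 0.267) nor SZ minus RZ (-0.61, adjusted p = 0.0942) passed. Without that array, IDZ minus RZ passed, as it did with the fixed block by animals, and the adjusted p lay between 0.00535 and 0.0168 over the 3 settings in which it passed. SZ minus RZ passed without SZ replicate 2 and without SZ replicate 3 (adjusted p from 0.0299 to 0.0371), settings that keep SZ replicate 4. Trpm7, which joins a magnesium- and calcium-conducting pore to a kinase, had means of 8.99, 8.74 and 8.51 in SZ, IDZ and RZ and was 1.40-fold higher in SZ than in RZ (adjusted p = 0.0177, lost under 3 alternatives). Trpm4, a sodium-conducting channel opened by calcium, had means of 7.25, 7.12 and 7.18 and passed no test. Trpc4ap had means of 9.19, 9.27 and 9.33 and passed none.

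**Figure D3:**
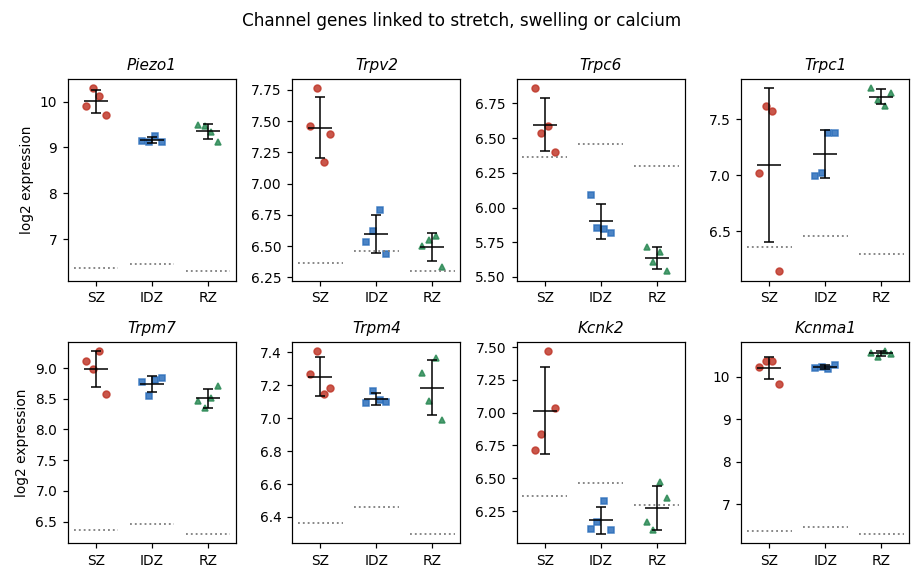
Log2 expression of 8 channel genes linked to stretch, swelling or calcium, in SZ (red), IDZ (blue) and RZ (green). Points are the 4 arrays of a zone, bars are the mean and SD, and the dotted grey line is the receptor background of that zone. Piezo1 lies between 9.71 and 10.29 in SZ and at or below 9.48 in the other zones, and the lowest point of Trpc1, 6.14, is SZ replicate 4.

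The two-pore potassium channels carry the resting leak of potassium, and TREK-1, encoded by Kcnk2, is opened by stretch. Kcnk2 had 6.72, 6.84, 7.47 and 7.04 in SZ, 6.12, 6.17, 6.33 and 6.10 in IDZ, and 6.17, 6.11, 6.47 and 6.35 in RZ. The SZ arrays did not overlap those of either other zone, in both of which the mean was below background. It was 1.79-fold higher in SZ than in IDZ (adjusted p = 0.000472) and 1.67-fold higher in SZ than in RZ (adjusted p = 0.00122). Kcnk1, a weakly conducting member, ran the other way, with a mean of 8.99 ± 0.38 in SZ, 9.69 ± 0.12 in IDZ and 9.68 ± 0.13 in RZ (SD, n = 4). It was lower in SZ than in IDZ by 0.70 (adjusted p = 0.00326) and lower in SZ than in RZ by 0.68 (adjusted p = 0.00395), with no overlap. Kcnk6 was 1.52-fold higher in SZ than in RZ (8.28 and 7.67, adjusted p = 0.00141). The other 8 of the 11 genes passed in no comparison.

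Of the potassium channels opened by calcium or sodium, Kcnt2 had the largest difference between IDZ and RZ in the whole family. It encodes SLICK, a channel opened by intracellular sodium. Its values were 7.05, 7.59, 7.40 and 7.40 in SZ, 7.75, 7.79, 7.83 and 7.84 in IDZ, and 5.50, 5.43, 5.30 and 5.59 in RZ. All 8 articular arrays were thus above background and all 4 RZ arrays below it. It was 5.08-fold higher in IDZ than in RZ (2.34 ± 0.11, adjusted p = 1.77e-08) and 3.74-fold higher in SZ than in RZ (adjusted p = 6.01e-09), and it was lower in SZ than in IDZ by 0.44 (adjusted p = 0.00858). Kcnma1, the pore of the BK channel, which opens with calcium and depolarization, had 10.22, 10.38, 10.38 and 9.83 in SZ, 10.22, 10.24, 10.18 and 10.29 in IDZ, and 10.57, 10.47, 10.61 and 10.54 in RZ. RZ was slightly the highest, and SZ minus RZ was -0.34 (adjusted p = 0.0397), a call lost under 12 alternatives. IDZ minus RZ was -0.32 (adjusted p = 0.12) and passed with the fixed block by animals, in the fit of both zones alone and without SZ replicate 4 (adjusted p from 0.00706 to 0.0226). Its accessory subunit Kcnmb1, which tunes BK channels in smooth muscle, had 7.87, 7.54, 7.84 and 7.84 in SZ, 7.11, 7.04, 6.92 and 6.76 in IDZ, and 6.85, 6.79, 6.65 and 6.78 in RZ, and was 1.76-fold higher in SZ than in IDZ (adjusted p = 3.42e-05). The accessory subunit thus had its highest mean in SZ and the pore in RZ. Kcnn3 was 1.51-fold higher in SZ than in IDZ (7.34 and 6.74, adjusted p = 0.000752), and Kcnn4, known from blood cells, had means of 6.76, 6.54 and 6.72 and passed no test.

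Calcium channels are built from a pore gene (Cacna1) and accessory genes (Cacna2d, Cacnb, Cacng). Of the 9 pore genes, Cacna1g changed most. It encodes a T-type channel, which opens at low voltage and closes fast. The values were 9.25, 9.37, 9.12 and 8.80 in SZ, 7.15, 7.36, 7.29 and 7.14 in IDZ, and 6.76, 6.81, 7.02 and 6.97 in RZ. SZ lay more than a full log2 unit above all other arrays, and IDZ lay above RZ on every array. It was 3.73-fold higher in SZ than in IDZ (1.90 ± 0.12, adjusted p = 3.24e-08) and 4.75-fold higher in SZ than in RZ (adjusted p = 2.57e-09), while IDZ minus RZ was 0.35 (adjusted p = 0.107) and passed with the fixed block by animals and under 3 other alternatives (adjusted p from 0.0163 to 0.0265). Cacna1h, another T-type gene, was 1.34-fold higher in SZ than in RZ (7.29 and 6.86, adjusted p = 0.0139, lost only without RZ replicate 4, at 0.0561). Cacna1d, an L-type pore, had 7.88, 8.18, 8.34 and 7.69 in SZ, 8.75, 8.71, 8.73 and 8.56 in IDZ, and 8.47, 8.15, 8.19 and 8.31 in RZ. IDZ was highest, and SZ was lower than IDZ by 0.67 (adjusted p = 0.00145). IDZ minus RZ was 0.41 (adjusted p = 0.0798) and passed with the fixed block and under 4 other alternatives (adjusted p from 0.00758 to 0.0471). Cacna1c, the L-type pore of heart and smooth muscle, had means of 6.91, 6.84 and 6.64 and passed no test, except for SZ minus RZ without SZ replicate 4 (adjusted p = 0.00448). Cacna1e, an R-type pore, was 1.37-fold higher in IDZ than in RZ (6.70 and 6.25, adjusted p = 0.0101). Cacna1b, an N-type pore, was lower in SZ than in RZ by 0.64 (adjusted p = 0.00743) with no zone above background.

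Among the accessory calcium channel genes, Cacng7 had the largest differences. Its protein is best known as a partner of glutamate receptors in the brain. Cacng7 had 8.06, 8.37, 8.61 and 7.97 in SZ, 8.11, 8.25, 8.15 and 8.26 in IDZ, and 6.93, 6.96, 7.01 and 7.03 in RZ. It was 2.31-fold higher in IDZ than in RZ (adjusted p = 1.36e-05) and 2.41-fold higher in SZ than in RZ (adjusted p = 1.32e-06), with SZ and IDZ overlapping. In GRCr8 it lies next to Cacng8, which in turn lies next to Cacng6, on chromosome 1, and neither of these neighbors passed in any comparison. Cacnb3 was lowest in IDZ, with means of 7.10 in SZ, 6.61 in IDZ and 7.13 in RZ, higher in SZ than in IDZ by 0.49 (adjusted p = 0.000699) and lower in IDZ than in RZ by 0.52 (adjusted p = 0.00154). Cacna2d1 had means of 8.39, 8.45 and 8.45. Of the 15 accessory genes, 12 passed in no comparison, and Cacnb2, the remaining one, was called between SZ and RZ below background (0.37, adjusted p = 0.0316, lost under 10 alternatives).

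Voltage-gated potassium channels form the largest group, with 35 pore genes. Of these, 1 was higher in SZ than in IDZ (background 17.0%) and 6 were lower (background 9.56%), and 2 were higher in SZ than in RZ (background 14.5%) and 5 were lower (background 12.2%). Kcna5, which encodes Kv1.5, had 6.64, 6.59, 6.65 and 6.85 in SZ, 7.22, 7.05, 7.25 and 7.30 in IDZ, and 8.57, 8.51, 8.13 and 8.28 in RZ. The zones formed 3 steps with no overlap, and RZ was the highest. Kcna5 was lower in SZ than in IDZ by 0.52 (adjusted p = 0.00258), lower in IDZ than in RZ by 1.17 (a 2.25-fold difference, adjusted p = 7.57e-06) and lower in SZ than in RZ by 1.69 (3.23-fold, adjusted p = 2.12e-08). In GRCr8, Kcna5, Kcna1 and Kcna6 are neighbors on chromosome 4. Kcna1 and Kcna6, which were chosen after their values were seen, had their highest values in RZ as well. Kcna6 had 8.22, 8.59, 8.59 and 8.19 in SZ, 8.61, 8.57, 8.61 and 8.46 in IDZ, and 9.60, 9.28, 9.23 and 9.16 in RZ, and was lower in IDZ than in RZ by 0.76 (adjusted p = 0.00107) and lower in SZ than in RZ by 0.92 (adjusted p = 3.79e-05). Kcna1 was lower in SZ than in RZ by 0.59 (6.52 and 7.11, adjusted p = 0.00805), while IDZ minus RZ was -0.46 (adjusted p = 0.0809). Another neighboring pair, Kcna3 and Kcna2 on chromosome 2, ran in opposite directions: Kcna3, the Kv1.3 gene of T cells and macrophages, was 1.53-fold higher in SZ than in IDZ (7.42 and 6.81, adjusted p = 0.000782), and Kcna2, also chosen after its values were seen, was lower in SZ than in IDZ by 0.55 (7.35 and 7.90, adjusted p = 0.0178). Beside Kcna3, none of 5 T cell markers was called between SZ and IDZ, with Cd3e, Cd3d, Cd2 and Cd8a above background in no zone, and 11 of 11 macrophage markers were higher in SZ. The part of these cells in the difference of Kcna3 was not tested.

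The Kcnd genes encode Kv4 pores, which give fast-inactivating currents. Kcnd2 was lowest in SZ, with 6.92, 6.77, 6.84 and 7.04 in SZ, 7.58, 7.47, 7.76 and 7.91 in IDZ, and 8.23, 8.13, 7.84 and 8.29 in RZ. It was lower in SZ than in IDZ by 0.79 (adjusted p = 0.000178) and lower in SZ than in RZ by 1.23 (adjusted p = 1.71e-06), while the call between IDZ and RZ (-0.44, adjusted p = 0.0392) was lost under 9 alternatives, the random block by animals among them. Kcnd3 peaked in IDZ instead, with 6.43, 6.54, 6.65 and 6.62 in SZ, 7.62, 7.63, 7.68 and 7.25 in IDZ, and 6.79, 6.65, 6.66 and 6.55 in RZ. It was lower in SZ than in IDZ by 0.99 (1.98-fold, adjusted p = 5.78e-06) and 1.84-fold higher in IDZ than in RZ (adjusted p = 7.95e-05). Kcnq5, which encodes a slow M-type channel, had the same order, with 8.86, 9.15, 9.16 and 9.09 in SZ, 10.02, 9.88, 9.97 and 9.96 in IDZ, and 9.42, 9.34, 9.14 and 9.32 in RZ. It was lower in SZ than in IDZ by 0.89 (adjusted p = 5.81e-06) and 1.57-fold higher in IDZ than in RZ (adjusted p = 0.000501). Kcnh2, the pore gene of the cardiac hERG current, was chosen after its values were seen and had means of 7.10 in SZ, 7.95 in IDZ and 7.92 in RZ, with SZ lower than IDZ by 0.85 (adjusted p = 0.000102).

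**Figure D4:**
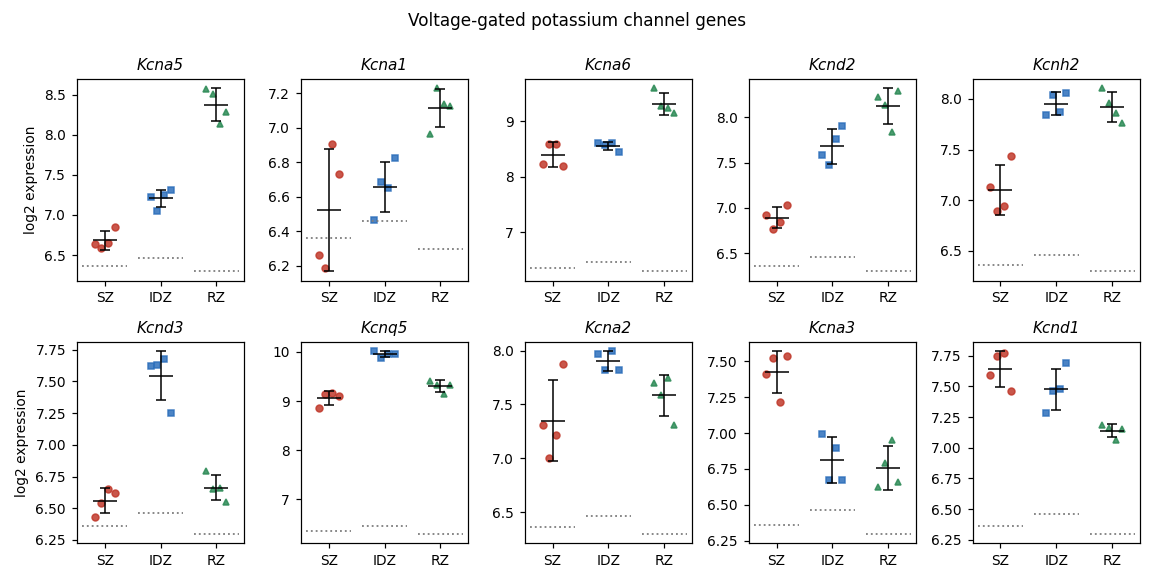
Log2 expression of 10 pore genes of voltage-gated potassium channels in SZ (red), IDZ (blue) and RZ (green). Points are the 4 arrays of a zone, bars are the mean and SD, and the dotted grey line is the receptor background of that zone. Kcna5, Kcna1, Kcna6 and Kcnd2 have their highest mean in RZ, and Kcnd3, Kcnq5, Kcna2 and Kcnh2 have it in IDZ.

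Of the 16 accessory subunits of potassium channels, SZ exceeded IDZ in 6 (background 17.0%) and was below it in 1 (background 9.56%). Kcnip1 encodes a calcium sensor that binds Kv4 channels. It had 6.86, 7.33, 6.71 and 6.71 in SZ, 6.18, 6.21, 5.72 and 6.07 in IDZ, and 8.06, 7.91, 7.96 and 8.41 in RZ. IDZ was below background, RZ was highest, and no pair of zones overlapped. Kcnip1 was lower in IDZ than in RZ by 2.04 (4.12-fold, adjusted p = 8.59e-07), lower in SZ than in RZ by 1.18 (adjusted p = 3.93e-05) and 1.82-fold higher in SZ than in IDZ (adjusted p = 0.0008). Its neighbor on chromosome 10 in GRCr8 is Kcnmb1, which was higher in SZ than in RZ. Kcne3 and Kcne4 are single-span subunits that alter the gating of several potassium channels. Kcne3 had 7.62, 7.82, 7.15 and 6.86 in SZ, 5.76, 5.87, 5.61 and 5.47 in IDZ, and 5.37, 5.75, 5.61 and 5.45 in RZ. Only SZ was above background, and it was 3.21-fold higher than IDZ (1.68 ± 0.17, adjusted p = 4.24e-06). Kcne4 had 8.77, 8.64, 8.74 and 8.28 in SZ, 7.49, 7.53, 7.32 and 7.71 in IDZ, and 7.12, 6.95, 6.83 and 7.21 in RZ, and was 2.14-fold higher in SZ than in IDZ (adjusted p = 1.15e-05) and 2.99-fold higher in SZ than in RZ (adjusted p = 1.82e-07). Kcne5 was 1.27-fold higher in IDZ than in RZ (7.54 and 7.19, adjusted p = 0.027, lost under 7 alternatives).

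Of the 15 inward rectifiers, Kcnj8 and Kcnj2 were higher in SZ than in both other zones. The other way, Kcnj11 was lower in SZ than in IDZ by 0.35 (adjusted p = 0.046), with overlapping arrays. Its mean was 6.16 in SZ, below background, and 6.52 in IDZ, close to the background level of 6.46. Kcnj13, above background in RZ alone, was lower in SZ than in RZ by 0.85 (adjusted p = 0.000832). Kcnj11 and Kcnj13 were chosen after their values were seen. Kcnj8 encodes Kir6.1, which with the regulatory protein of Abcc9 forms the ATP-sensitive potassium channel of pericytes and vascular smooth muscle. It had 8.06, 8.09, 7.53 and 8.08 in SZ, 6.65, 6.85, 6.82 and 6.61 in IDZ, and 6.41, 6.27, 7.03 and 6.45 in RZ. SZ did not overlap the other zones, and Kcnj8 was 2.31-fold higher in SZ than in IDZ (1.21 ± 0.16, adjusted p = 5.24e-05) and 2.64-fold higher in SZ than in RZ (adjusted p = 9.52e-06). Its partner Abcc9 moved with it, with means of 7.98 in SZ, 6.40 in IDZ and 6.22 in RZ, and so did 8 of the 10 measured genes of the pericyte and smooth muscle list, Abcc9 among them, with a mean log2 level over the list of 8.90 to 9.33 in SZ, 7.36 to 7.66 in IDZ and 7.36 to 7.55 in RZ. Of that list, Cnn1 was above background in no zone, and Cspg4, well above background, ran the other way, with means of 10.30 in SZ, 10.67 in IDZ and 10.90 in RZ (SZ minus IDZ -0.37, adjusted p = 0.0291, and SZ minus RZ -0.60, adjusted p = 0.00125). The endothelial list, with a mean log2 level of 8.56 to 9.15, 6.57 to 6.98 and 6.43 to 6.65 on the arrays of SZ, IDZ and RZ, moved with Kcnj8 and with the other genes higher in SZ too. The part of these cells was not tested for any gene that was higher in SZ. This holds for Kcnj8, Kcnmb1, Trpc6, Kcne4 and Ano1, and equally for Ano6, Cacna1g, Kcne3 and Piezo1. Kcnj2, which encodes Kir2.1, the rectifier that holds the resting potential, was 1.75-fold higher in SZ than in IDZ (7.30 and 6.49, adjusted p = 0.00152) and 1.92-fold higher in SZ than in RZ (7.30 and 6.36, adjusted p = 0.000399). Its neighbor Kcnj16 on chromosome 10 passed in no comparison.

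The sodium channel family was represented above background by an accessory subunit alone. None of the 8 pore genes was above background, and their zone means lay between 4.82 and 6.22. Scn2a, Scn3a and Scn8a were called between SZ and RZ at these levels, with differences of 0.27, 0.52 and -0.33, and the calls of Scn2a (adjusted p = 0.0461) and Scn8a (adjusted p = 0.0272) were lost under 15 and 6 alternatives. Scn7a, which in other tissues senses sodium, had means of 5.10, 4.91 and 4.82. Scn2b, an accessory subunit with an immunoglobulin-like fold, had 7.99, 8.22, 8.31 and 7.92 in SZ, 7.38, 7.59, 7.60 and 7.67 in IDZ, and 6.99, 6.95, 6.75 and 6.86 in RZ. The zones formed steps with no overlap, 1.46-fold higher in SZ than in IDZ (adjusted p = 0.00136) and 1.59-fold higher in IDZ than in RZ (adjusted p = 0.00105). Its neighbor Scn4b on chromosome 8 passed in no comparison.

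Genes around the family were counted in the same fit. Over all genes, 17.0% were higher and 9.56% lower in SZ than in IDZ, and the counts of the lists stand beside these shares. Of 20 other channels linked to mechanical sensing, 4 were higher in SZ than in IDZ and 1 was lower, which is near them. The gap junction gene Gja1 was higher in SZ than in IDZ by 1.47 (adjusted p = 7.26e-06), and the pannexin Panx3 was lower in IDZ than in RZ by 1.45 (adjusted p = 0.00336). In the list of calcium stores and entry, SZ exceeded IDZ in 8 of 17 genes (background 17.0%) and was below it in 2 (background 9.56%), and these included the sodium-calcium exchanger Slc8a1 (2.21, adjusted p = 2.99e-07), the calcium pump Atp2b4 (0.99, adjusted p = 1.9e-05) and, lower in SZ, the mitochondrial calcium uniporter Mcu (-0.82, adjusted p = 0.000477). The IP3 receptor Itpr1 formed steps, higher in SZ than in IDZ by 0.78 (adjusted p = 0.000133) and higher in IDZ than in RZ by 0.93 (adjusted p = 0.000124). A list of 15 genes covered calcium signaling through calmodulin and calcineurin, mostly genes of the signaling proteins themselves. Of these, 9 were higher in SZ than in IDZ (background 17.0%) and none was lower (background 9.56%). Among the 9 were Nfatc2 (1.01, adjusted p = 2.55e-06) and Rcan2 (1.15, adjusted p = 3.55e-05). The activity of this signaling was not measured. Of 22 genes of chloride and volume-regulated channels, 8 were higher (background 17.0%) and 4 were lower (background 9.56%) in SZ than in IDZ, with Clic2 at 1.91 (adjusted p = 3.9e-07) and Clcn2 at -0.84 (adjusted p = 0.000503). Of 11 other cation channels, none was higher (background 17.0%) and 2 were lower (background 9.56%) in SZ than in IDZ, namely the endolysosomal channels Mcoln2 (-1.78, adjusted p = 1.28e-08) and Mcoln3 (-0.89, adjusted p = 0.000599). These genes were chosen for mention after their values were seen.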

How the data were processed

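RNA of SZ, IDZ and RZ was labeled from total RNA and hybridized to 12 arrays. The authors processed the probe intensities by RMA (background adjustment, quantile normalization, median polish) in Partek Genomics Suite 6.6, and the deposited values are log2 expression per transcript cluster. These were used without further normalization, and the genome build of the clusters is not given in the sources used here. Symbols came from the platform annotation and were checked by gene ID (140 of 140 matched).

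All clusters were fitted in limma 3.58.1 under R 4.3.3 with a mean for every zone, the 3 contrasts between zones and moderated variances, and the p-values of a comparison were adjusted over its 27342 clusters (Benjamini-Hochberg). Summaries and plots were made in Python 3.11.15 with pandas 2.3.3 and matplotlib 3.10.9. On simulated data, 48, 49 and 48 of 50 clusters shifted 2-fold were recovered for SZ minus IDZ, IDZ minus RZ and SZ minus RZ, and 26, 33 and 31 of 50 shifted 1.5-fold, with 8, 5 and 7 false calls among the unshifted clusters. The simulated noise was independent and normal, with 1 spread per cluster for all zones and with no shared animals and no outlying array. The counts therefore do not show how the fit behaves with an array such as SZ replicate 4. The number of arrays limits the precision.

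By the labels, an IDZ and an RZ sample with 1 number share their animals. After subtraction of the zone means, such samples correlated at 0.02 to 0.21. The consensus correlation within pairs of animals, taken over all 12 arrays and thus with the SZ arrays included, was -0.14. Fits with a block for the animals were alternatives. Others were variance models, scalings, filters and each array left out. The members, lists and tests were chosen with earlier results of these data known. Genes were named from a set list, up to 12 per comparison and direction at 2-fold, and up to 2 per role and comparison by the smallest adjusted p. Other genes were named after their values were seen, and their single calls were not followed through the alternatives.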

Additional observations from a re-analysis of the deposited data

Results flagged for a closer look

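Of 132 groups of 4 arrays of a named gene in a zone, 7 had an array far from the other 3 by Dixon's criterion, where chance marks about 1 in 20 groups, and 3 of these lay in SZ. Kcnj8 had 7.53 on SZ replicate 3, below 8.06 on the next array. Kcnmb1 had 7.54 on SZ replicate 2, below 7.84. Cacna1b had 6.24 on SZ replicate 4, above 5.50, with all 3 zone means under background. Kcnd3 had 7.25 on IDZ replicate 4, below 7.62, and without that array its difference between SZ and IDZ passed 2-fold. Scn8a had 6.17 on IDZ replicate 4, above 6.02. Trpc6 had 6.09 on IDZ replicate 1, above 5.86. Cacnb2 had 5.69 on RZ replicate 2, above 5.32.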

How the results depend on the processing

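Of 74 called differences of named genes, 59 kept their call under all alternatives run, 15 lost it under at least 1 and 0 changed sign, and of 35 differences that were not called, 9 passed under at least 1. The counts at 2-fold were replaced without a minimum fold by 20 higher and 14 lower in SZ than in IDZ, 10 higher and 6 lower in IDZ than in RZ, and 26 higher and 13 lower in SZ than in RZ. Genes at least 2-fold lower in SZ than in IDZ numbered 0, but 1 (Kcnd3) after a second quantile normalization, with the random replicate block by animals, and on leaving out an array, where the count ran from 0 to 1. The fixed block by animals moved the 2-fold counts between IDZ and RZ by 0 (3 and 2), and for the genes covered by the naming rule the blocked fits changed no other call than those given with each gene above and the calls of Scn8a and Trpm8 between SZ and IDZ, which were lost. Of the whole family, the fixed block called 18 genes higher and 11 lower in IDZ than in RZ at the adjusted p alone, against 10 and 6. Over all genes it called 867 and 1708, against 461 and 798. Without a minimum fold, a choice made after seeing the data, leaving out an array gave 18 to 24 genes higher and 10 to 48 lower in SZ than in IDZ, 7 to 15 higher and 4 to 12 lower in IDZ than in RZ, and 22 to 28 higher and 9 to 25 lower in SZ than in RZ, with the upper ends from leaving out SZ replicate 4. In the fit of both zones alone, IDZ and RZ differed in 17 genes higher and 12 lower (876 and 1816 over all genes), and a second quantile normalization gave 10 lower (996 over all genes). The cause was not tested. With background at the 90th or 99th percentile, 97 (69.3%) or 57 (40.7%) genes exceeded it in at least 1 zone, against 76.0% or 59.7% of all genes. At the 99th percentile this was thus no longer a majority of the family. In SZ replicate 4, genes of the family above background in no zone had a median of 5.98, against 5.44 to 5.75 on the other arrays.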
